A study of Rattus norvegicus with 18 samples.

Results

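The genes described here carry growth factor signals to the hepatocyte after partial hepatectomy (PHx). They are Hgf, its receptor Met, 2 proteases that activate it (Hgfac and Plau), the receptor Egfr with its ligands Tgfa, Areg and Hbegf, and the growth regulators Tgfb1 and Igfbp1. All 10 genes were chosen by name from among 18166 genes that had a probe set annotated with exactly 1 gene symbol, and each had 1 such probe set. Expression was measured in whole liver RNA of adult male Sprague-Dawley rats on GeneChip arrays, in which labelled copies of the RNA bind to sets of probes for each gene. The 18 arrays came from 6 groups of 3 rats. S-RBC rats underwent 50% PHx, were bled of 3 ml and were resuscitated with red blood cells stored for 7 days. F-RBC rats underwent the same PHx and bleeding and received fresh red blood cells. HAES rats were likewise operated and bled and received 10% HAES, a starch plasma expander. Rats of the bleeding group were operated and bled without resuscitation, PHx rats were operated without bleeding, and naive rats had neither. All operated rats were studied on day 1 after PHx, so PHx itself was common to every group except the naive one. The series thereby asked how bleeding, and the fluid given after it, altered the regenerating liver.

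Hepatocyte growth factor (Hgf) is made in the liver mainly by non-parenchymal cells, among them stellate and endothelial cells, and is secreted as an inactive single chain. Serine proteases such as the HGF activator (Hgfac) and urokinase (Plau) cleave it, and the active form binds the receptor tyrosine kinase Met on hepatocytes. Egfr is the second major mitogen receptor of the hepatocyte. Its ligands are made as membrane proteins and released by shedding. Transforming growth factor β1 (Tgfb1) restrains hepatocyte proliferation, whereas Igfbp1 is an insulin-like growth factor binding protein that hepatocytes secrete and that insulin represses.

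Arrays differed in overall brightness, with median intensities between 16.1 and 23. The array of S-RBC replicate 1 stood apart. Its highest correlation with any other array was 0.938, against 0.968 or more for each of the others. Where an extreme value of a gene other than a cell marker is named below as coming from this array, a difference is also given without it. The marker sums and differences include this array. The markers bore out the label of liver tissue. Of 8 hepatocyte genes 7 were matched, and their intensities summed to between 22513 and 28413 in every array.

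Promoter sequences are shown for Hgf, the only member whose level differed between groups in the tests below, and for Igfbp1, whose level varied most between rats. Both are the 250 bases before the annotated start of the gene, taken from RefSeq on the GRCr8 build and written 5′ to 3′ on the strand of the gene.
Hgf, chr4:19700468-19700717, minus strand: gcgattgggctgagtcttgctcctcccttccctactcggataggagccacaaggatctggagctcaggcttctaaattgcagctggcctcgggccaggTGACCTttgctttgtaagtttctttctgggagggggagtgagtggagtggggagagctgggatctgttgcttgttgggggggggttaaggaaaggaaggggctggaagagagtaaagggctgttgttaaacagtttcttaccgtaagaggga
Igfbp1, chr14:86261027-86261276, plus strand: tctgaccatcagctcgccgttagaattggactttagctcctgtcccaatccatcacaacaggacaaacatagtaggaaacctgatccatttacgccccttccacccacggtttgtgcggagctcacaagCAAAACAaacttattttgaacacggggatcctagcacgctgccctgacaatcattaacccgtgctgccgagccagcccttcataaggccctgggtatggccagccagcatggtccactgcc
The capitals mark matches to short motifs searched on both strands. In Hgf they mark the nuclear receptor half-site AGGTCA, read on the opposite strand and beginning 152 bases before the start, which 14.1% of 33469 rat promoters of this length hold. In Igfbp1 they mark CAAAACA, the core letters of the insulin response element, beginning 121 bases before the start and held by 5.46% of promoters. A match describes the letters only and is not a measured binding site.

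Hgf was the member whose level differed between the groups. Its probe set (17788960) had intensities of 398, 336 and 468 in S-RBC livers and of 140.4, 130.0 and 203 in F-RBC livers. In HAES livers they were 268, 211 and 205, and in livers of the bleeding group 238, 176 and 191. PHx livers had 137, 292 and 212, and naive livers 208, 226 and 229. All 3 S-RBC livers thus lay above each of the other 15, and the remaining groups overlapped in part. An order of this kind was shown by 0.654% of all probe sets. In whole liver RNA, a change in the number of cells that make a transcript and a change in the amount per cell cannot be told apart.

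**Figure D1:**
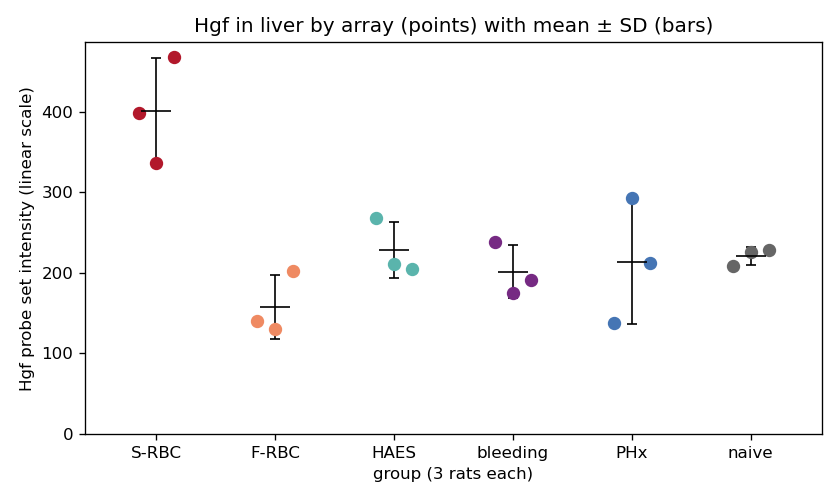
Hgf probe set intensity (linear scale) in each of the 18 arrays by group; points are rats and bars give the mean ± SD (n = 3). The S-RBC mean was 401 ± 66.2, above the F-RBC mean of 158 ± 39.3, and every S-RBC point lies above every point of the other groups.

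Levels were tested as log2(intensity + 16) with limma, by a moderated F test over the 6 groups and by moderated tests of all 15 pairs of groups, with Benjamini-Hochberg adjustment over 36685 probe sets. The methods' t-test was also run, with this adjustment and a threshold of 0.05. The paper instead chose its p cut-off by the size of the resulting gene sets. In the F test, 1 of the 10 genes passed an adjusted p of 0.05, namely Hgf (adjusted p = 0.0266), while 6.59% of all probe sets passed. Tgfa followed with an adjusted p of 0.0764, and the other 8 genes had adjusted p values between 0.143 and 0.701. Among the 150 tests of a member in a pair, 2 passed, and both were of Hgf in S-RBC rats. Over the same 15 pairs 1.48% of the tests of all probe sets passed, so 2 calls are close to that share.

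Against F-RBC livers, from which they differed by the storage of the transfused cells, Hgf rose in S-RBC livers. The log2 difference was 1.27 ± 0.22 (SE, 95% interval 0.80 to 1.75, adjusted p = 0.0310), or 2.42-fold on the scale of intensity + 16. In this comparison 1 of 10 members passed, and 0.496% of all probe sets did, with 0.0791% past the threshold and higher. Of these probe sets, 29 were higher and 153 lower, a split that turned to 125 higher and 73 lower once each array was centred on its median. Hgf itself was higher under either scaling, with a log2 difference of 1.39 after centring and 1.23 after quantile normalization. Without S-RBC replicate 1 the log2 difference was 1.27 (adjusted p = 0.0747). Without F-RBC replicate 1 or 2 the difference was 1.21 or 1.16, with adjusted p values of 0.0836 and 0.138.

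Against the bleeding group, Hgf rose by 0.94 ± 0.22 on the log2 scale in S-RBC livers (SE, 95% interval 0.46 to 1.41, adjusted p = 0.0406). Again 1 of 10 members passed, and 2.06% of all probe sets did, with 1.22% past the threshold and higher. These were 449 higher and 308 lower probe sets (1098 and 346 after centring on the median). The value without S-RBC replicate 1 was 0.93 (adjusted p = 0.0876). The difference lost its call in 8 of the 18 fits that each left out 1 array, with adjusted p values of up to 0.143 when bleeding replicate 3 was left out. After quantile normalization it was 0.71 (adjusted p = 0.101).

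Hgf did not pass in the remaining comparisons of S-RBC livers, and the groups did not overlap. Such a lack of overlap was common over all probe sets, at 16.7% in S-RBC against PHx, 19.0% against naive and 11.9% against HAES livers, and between 11.9% and 32.7% over the 15 pairs. The log2 difference was 0.90 against PHx livers (95% interval 0.43 to 1.38, adjusted p = 0.0790) and 0.80 against naive livers (0.33 to 1.28, adjusted p = 0.0597). Against HAES livers it was 0.77 (0.30 to 1.24, adjusted p = 0.234). The 3 intervals exclude 0 and reach past a doubling of intensity + 16, which is 1 on this scale. Among the other 5 groups the mean levels were ordered HAES, naive, PHx, bleeding and F-RBC, and 0 of their pairs passed. The widest gap, F-RBC against HAES, was −0.50 (95% interval −0.98 to −0.03, adjusted p = 0.402). PHx livers differed from naive livers by −0.10 (95% interval −0.57 to 0.37, adjusted p = 0.938), an interval that leaves out a doubling of intensity + 16 on day 1 after PHx alone.

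**Figure D2:**
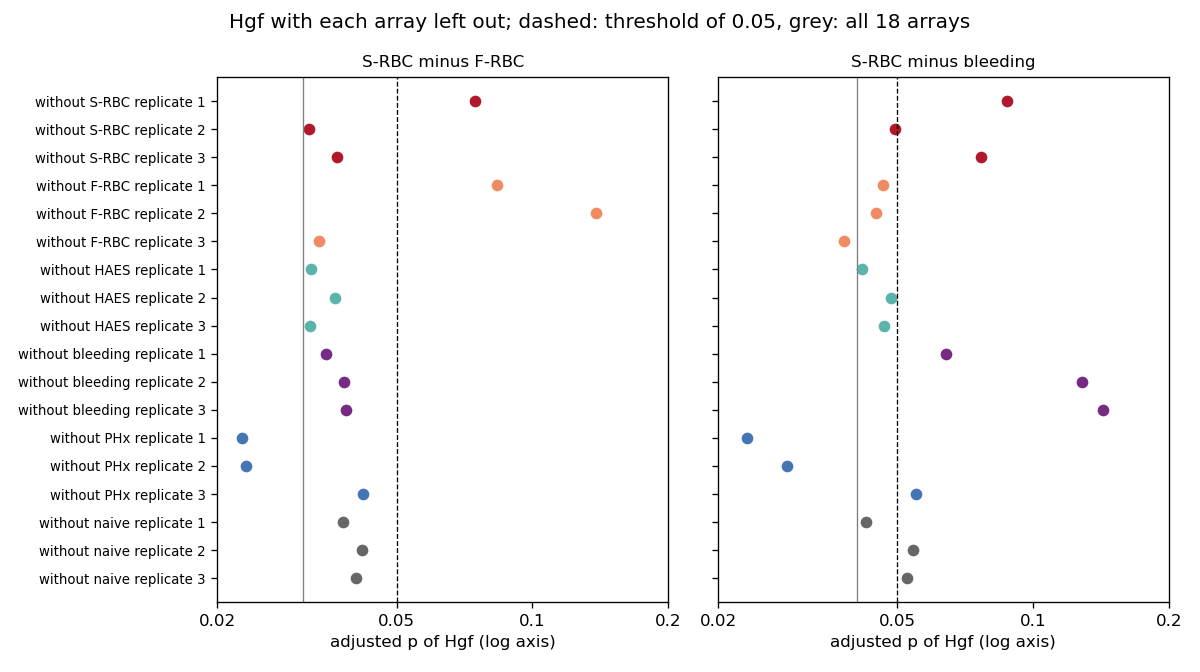
Adjusted p of Hgf (log axis) in S-RBC against F-RBC livers (left) and against the bleeding group (right) when each of the 18 arrays was left out; the dashed line is the threshold of 0.05 and the grey line the value with all arrays. Of the 18 points, 15 remain past the threshold on the left and 10 on the right.

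Markers of the cells that are known to make Hgf were examined beside these 2 comparisons. The 15 matched stellate cell markers summed to between 1430 and 2123 in S-RBC livers, between 1571 and 2231 in F-RBC livers and between 1186 and 1340 in the bleeding group. On average over a group, 14 of the 15 were brighter than the median of the arrays in S-RBC livers and all 15 in each other group. The lowest was Ngfr, at 2.34 in the S-RBC array that stood apart. Against F-RBC livers 5 of the 15 were higher in S-RBC livers, with a median log2 difference of −0.35, against −0.07 over all probe sets. In limma 0 passed (6 at an unadjusted p under 0.05, as were 18.5% of all probe sets, and 0 by the methods' t-test). Against the bleeding group 10 of the 15 were higher, with a median of 0.30 against 0.01 over all probe sets (9 of 15 and 0.14 after quantile normalization). Of these 1 passed, Rgs5, a pericyte and stellate cell gene, while 2.06% of all probe sets passed. Rgs5 was also called higher in PHx, F-RBC, S-RBC and HAES livers against naive livers. Sinusoidal endothelial markers (10 matched) summed to between 1058 and 1231 in S-RBC livers, between 1044 and 1419 in F-RBC livers and between 728 and 953 in the bleeding group. Of these 10, 5 were higher in S-RBC than in F-RBC livers (median log2 difference −0.02, turning to 0.07 with 8 higher after quantile normalization and to 0.10 with 8 higher after centring), and 8 were higher than in the bleeding group (median 0.24). The 12 Kupffer cell markers summed to between 2343 and 3148 in S-RBC livers, between 1497 and 2798 in F-RBC livers and between 1467 and 2335 in the bleeding group. Of these 12, 8 were higher in S-RBC than in F-RBC livers (median log2 difference 0.36) and 11 were higher than in the bleeding group (median 0.49, or 0.27 with 10 higher after quantile normalization). Against the bleeding group 1 passed, the macrophage receptor Vsig4, beside the same 2.06% of all probe sets. The part of these cell types in the Hgf result was not tested.

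No call was made for Met or for the proteases that activate Hgf. Met, the receptor, ranged from 102 to 249 over S-RBC livers and from 192 to 217 over F-RBC livers. The highest and the lowest Met values of all 18 arrays were thus both from S-RBC rats, the highest from the array that stood apart. The difference of S-RBC from F-RBC livers was −0.30 (adjusted p = 0.541), and −0.59 (adjusted p = 0.244) without that array. The largest mean difference, 0.52 in F-RBC against naive livers (95% interval 0.00 to 1.04, adjusted p = 0.202, and 0.34 after centring), rested on values of 192, 195 and 217 in F-RBC livers, against 120.1, 132 and 154 in naive livers.

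Hgfac, a protease that hepatocytes secrete into plasma, was likewise higher in S-RBC than in F-RBC livers, without passing. It had intensities of 271, 238 and 233 in S-RBC livers, against 181, 158 and 189 in F-RBC livers, and the groups did not overlap, as was the case for 21.1% of all probe sets. The log2 difference was 0.46 (95% interval 0.14 to 0.77) with an adjusted p of 0.129. The bleeding group, with 245, 216 and 280.3, overlapped with S-RBC livers. The difference of S-RBC livers from the bleeding group, in which Hgf was called, was 0.01 for Hgfac (95% interval −0.31 to 0.32, adjusted p = 0.989) and turned to −0.20 after quantile normalization.

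Plau, urokinase, also activates plasminogen. It was highest in PHx livers, at 64, 36.2 and 64.9, against 30.4, 27.5 and 30.1 in naive livers. These groups did not overlap (16.2% of all probe sets did not), and the difference of 0.62 (95% interval 0.23 to 1.00) did not pass (adjusted p = 0.180). HAES livers had 23.8, 29.8 and 40.9, lower than PHx livers by 0.57 in mean (95% interval of the difference −0.95 to −0.18, adjusted p = 0.120). S-RBC livers, with 35.2, 42.3 and 40.8, overlapped with the 37.4, 61.3 and 44.1 of F-RBC livers.

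Egfr, the receptor shared by the ligands below, showed no separation of groups. Its intensity ranged from 309 to 674 over all 18 arrays, and its F test was the weakest of the 10 (adjusted p = 0.701). Between S-RBC and F-RBC livers the log2 difference was −0.00 (95% interval −0.56 to 0.56, adjusted p = 1.000).

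Of the Egfr ligands, transforming growth factor α (Tgfa) was higher in the 3 resuscitated groups, without passing. It had intensities of 45.8, 29.8 and 26.5 in S-RBC livers, 37.7, 35.6 and 39.6 in F-RBC livers and 29.1, 26.6 and 28.4 in HAES livers. The bleeding group had 27.9, 17.9 and 16.0, PHx livers 16.2, 23.3 and 21.9, and naive livers 19.8, 21.8 and 27.5. F-RBC livers did not overlap with these 3 groups. Of all probe sets, 24.0% did not overlap between F-RBC livers and the bleeding group, 24.7% against PHx and 32.7% against naive livers. S-RBC and HAES livers overlapped with the bleeding and the naive group through single rats. The log2 differences of F-RBC livers were 0.57 against the bleeding group (adjusted p = 0.0895), 0.56 against PHx livers (adjusted p = 0.153) and 0.46 against naive livers (adjusted p = 0.0851). The median of all probe sets was itself shifted by 0.14 between F-RBC and naive livers and by 0.10 between F-RBC and PHx livers. Against naive livers the Tgfa difference was 0.28 after centring. The highest S-RBC value, 45.8, came from the array that stood apart. The difference of S-RBC livers from the bleeding group was 0.45 (adjusted p = 0.129), and 0.28 (adjusted p = 0.367) without that array.

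Amphiregulin (Areg) and heparin-binding EGF-like growth factor (Hbegf) were dim. Areg ranged from 7.77 to 19.1 and Hbegf from 4.63 to 17.9, below the median of the array in all 18 arrays. Hbegf had 4.63, 12.5 and 8.94 in S-RBC livers, against 16.2, 17.8 and 12.6 in F-RBC livers, a log2 difference of −0.36 (95% interval −0.65 to −0.07, adjusted p = 0.178, and −0.23 after quantile normalization). The lowest of these was from the array that stood apart, without which the difference was −0.24 (adjusted p = 0.440). The groups were parted by the narrow gap between 12.5 and 12.6, and 21.1% of all probe sets did not overlap in this pair. Areg was lowest in PHx livers (7.77, 8.0 and 10.8), with 19.1, 14.9 and 10.9 in F-RBC livers, a difference of 0.31 in F-RBC against PHx livers (95% interval 0.03 to 0.58, adjusted p = 0.299) that was 0.16 after quantile normalization and 0.16 after centring.

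**Figure D3:**
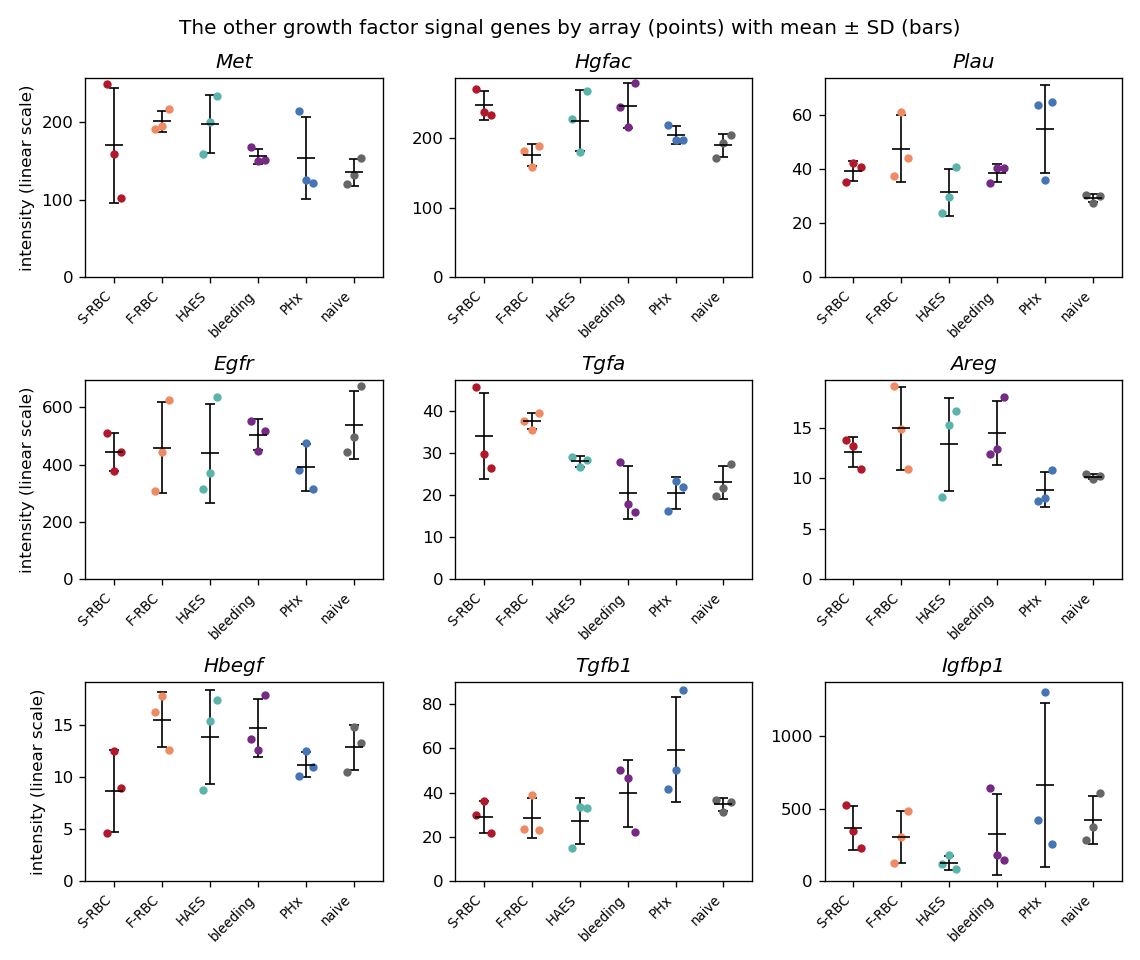
Probe set intensity (linear scale, each panel with its own axis from 0) of the other 9 genes in each array by group; points are rats and bars give the mean ± SD (n = 3). Hgfac is higher in S-RBC (248 ± 20.8) than in F-RBC livers (176 ± 16.1), Tgfa is higher in F-RBC livers (37.6 ± 2.00) than in PHx livers (20.5 ± 3.76), and 1 PHx rat reaches 1308 for Igfbp1; none of the 9 genes passed the test in any pair.

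Tgfb1 was highest in PHx livers, without passing. It had intensities of 29.7, 36.0 and 21.5 in S-RBC livers, 23.4, 38.7 and 23.1 in F-RBC livers and 15.1, 33.5 and 33.0 in HAES livers. It had 50.1, 46.6 and 22.3 in the bleeding group, 41.5, 50.0 and 86.2 in PHx livers and 36.8, 31.2 and 35.9 in naive livers. PHx livers did not overlap with the 3 resuscitated groups or with naive livers, as 16.2% to 24.7% of all probe sets did not in these pairs. The log2 difference against PHx livers was −0.71 for S-RBC (95% interval −1.24 to −0.18, adjusted p = 0.204), −0.74 for F-RBC (−1.26 to −0.21, adjusted p = 0.224) and −0.79 for HAES livers (−1.31 to −0.26, adjusted p = 0.116). These comparisons share the PHx rats. Between S-RBC and F-RBC livers the difference was 0.03 (95% interval −0.50 to 0.55, adjusted p = 0.967).

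Igfbp1 spanned the widest range of the 10 genes, from 85.8 to 1308. HAES livers were lowest, at 114, 177 and 85.8, against 420.5, 1308 and 258 in PHx livers and 279.8, 374 and 606 in naive livers. HAES livers overlapped with neither group, as was the case for 19.7% and 18.2% of all probe sets. The log2 difference was −1.98 against PHx livers (95% interval −3.23 to −0.73, adjusted p = 0.0929) and −1.60 against naive livers (−2.85 to −0.35, adjusted p = 0.190). S-RBC livers had 526, 346 and 226 and did not overlap with HAES livers either, as was the case for 11.9% of all probe sets. The log2 difference of S-RBC from HAES livers was 1.40 (95% interval 0.15 to 2.65, adjusted p = 0.392), and 1.11 without S-RBC replicate 1. F-RBC livers had 127, 303 and 485. S-RBC livers differed from F-RBC livers by 0.35, with an interval from −0.90 to 1.60 (adjusted p = 0.797). The bleeding group had 645, 178 and 144, a range that overlapped with every other group.

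**Figure D4:**
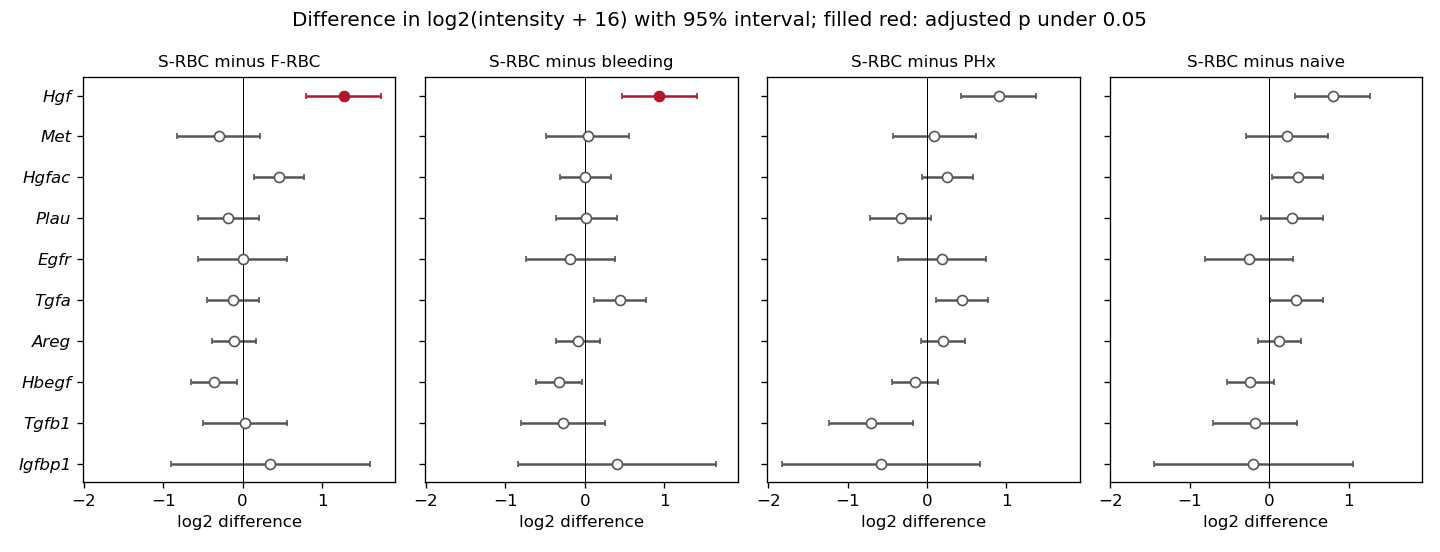
Difference of S-RBC livers from F-RBC livers, the bleeding group, PHx livers and naive livers in log2(intensity + 16) for the 10 genes; points are fitted differences and bars 95% intervals (n = 3 per group). Filled red points passed an adjusted p of 0.05: Hgf against F-RBC livers (1.27) and against the bleeding group (0.94).

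In the 13 other pairs of groups 0 of the 10 members passed in limma. Between 0 and 3 members per pair had an unadjusted p under 0.05 (10.5% to 24.3% of all probe sets did). The methods' t-test called 0 members in every pair, a count without a share of all probe sets beside it. In limma, 0.733% of all probe sets passed in S-RBC against PHx livers, 3.37% in S-RBC against naive livers and 0.00545% in S-RBC against HAES livers. For F-RBC livers the share was 1.21% against the bleeding group, 0.172% against PHx, 6.17% against naive and 0% against HAES livers. For HAES livers it was 1.81% against the bleeding group, 2.28% against PHx and 2.62% against naive livers. It was 0% in the bleeding group against PHx livers, 0.919% in the bleeding group against naive livers and 0.346% in PHx against naive livers. At these shares, 0 of 10 genes is close to what all probe sets gave. The direction of a member's difference turned with the scaling of the arrays in 22 of the 150 tests, all of them with a log2 difference of at most 0.13 in size.

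Beyond the 10 members, 107 genes of 6 pathway lists were matched. Of their 1605 tests over the 15 pairs 14 passed, or 0.872%, against 1.48% for all probe sets. Of the proteases and inhibitors that control Hgf activation, 15 of 16 were matched, and over the 15 pairs 1 call was higher and 1 lower. Serpinf2, the inhibitor of plasmin, had 1190.4, 1281 and 1278 in F-RBC livers, against 589, 678 and 905 in naive livers, and rose by 0.80 (adjusted p = 0.0392; 0.61 and adjusted p = 0.109 after centring on the median). Plaur, the receptor of urokinase, had 20.8, 18.3 and 21.5 in HAES livers, against 35.4, 39.3 and 37.2 in PHx livers, and fell by 0.56 (adjusted p = 0.0246). The fall in Plaur stood beside the lower mean of Plau in the same comparison, which did not pass. Of the adaptors and kinases that relay Met and Egfr signals, 14 of 20 were matched and 0 passed in any pair, with between 0 and 5 per pair at an unadjusted p under 0.05 and 0 by the methods' t-test.

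Of the other Egfr family ligands, receptors and shedding proteins, 14 of 15 were matched, with 3 calls, all higher and all against naive livers. Of all probe sets 4.90% were called higher in F-RBC against naive livers, where 2 of these calls fell, and 0.570% in the bleeding group against naive livers. Erbb2, the co-receptor of the family, had 30.7, 31.7 and 30.9 in the bleeding group, against 7.41, 12 and 12.7 in naive livers, and rose by 0.82 (adjusted p = 0.0467; 0.71 and adjusted p = 0.0565 after centring). The naive values lay below the median of their arrays, and the call was kept in 4 of the 18 fits with 1 array left out. Nrg1, a neuregulin that binds other receptors of the family, had 26.1, 73.9 and 36.4 in F-RBC livers, against 11.5, 15.9 and 20.4 in naive livers, and rose by 0.88 (adjusted p = 0.0262). Without F-RBC replicate 2, the highest of these, the difference was 0.57 (adjusted p = 0.114). Rhbdf2, which carries the sheddase of the ligands to the cell surface, rose by 0.57 in the same comparison (adjusted p = 0.0291). It was dim, at 19.8, 25.2 and 21.5 in F-RBC livers against 9.67, 9.98 and 9.31 in naive livers. After centring the values of Nrg1 and Rhbdf2 were 0.70 (adjusted p = 0.0773) and 0.39 (adjusted p = 0.111). Among 21 feedback and early target genes of ERK, the kinase downstream of both receptors, 1 call was made. Junb, an immediate early transcription factor, had 31.8, 57.4 and 53.7 in HAES livers, against 192, 75.6 and 173 in naive livers, and fell by 1.29 (adjusted p = 0.0361).

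In the TGF-β pathway 24 of 29 genes were matched, with 4 higher calls and 1 lower. Inhba, the subunit of activin A, accounted for 3 of them. It had 95.2, 57.2 and 95.3 in HAES livers and 72.0, 87.8 and 59.9 in F-RBC livers, against 40.01, 22.3 and 30.0 in the bleeding group. The log2 difference from the bleeding group was 1.07 in HAES livers (adjusted p = 0.0129) and 0.94 in F-RBC livers (adjusted p = 0.0288), and that of HAES from naive livers 0.76 (adjusted p = 0.0479; 0.68 and adjusted p = 0.0686 after centring). S-RBC livers, with 58.3 to 61.9, were also higher than the bleeding group, by 0.72 without passing (adjusted p = 0.0655). The bleeding group differed from PHx livers, with 48.5 to 83.7, by −0.76 (adjusted p = 0.207). A low level in the bleeding group was thus common to these comparisons. Fst encodes follistatin, which binds and neutralises activin. It had 4.14, 13.9 and 18.8 in S-RBC livers, against 33, 29 and 23 in the bleeding group, and fell by 0.68 (adjusted p = 0.0392), with its lowest value from the array that stood apart. Without that array the difference was −0.45 (adjusted p = 0.0940). Fst was dim in S-RBC livers, where each value lay below the median of its array. The other call was Itgb6, part of an integrin that activates latent TGF-β. It was dim, at 21.7, 15.6 and 15.3 in S-RBC livers against 7.50, 7.53 and 8.86 in naive livers. Of these values, all but that of S-RBC replicate 1 lay below the median of the array. Itgb6 rose by 0.48 in S-RBC against naive livers (adjusted p = 0.0232, or 0.39 and adjusted p = 0.0751 without S-RBC replicate 1).

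Among the genes of the insulin-like growth factor axis 19 of 20 were matched, with 1 higher call and 2 lower. Igfals stabilises circulating insulin-like growth factors. It had 156, 146 and 119 in S-RBC livers, against 240.2, 318 and 389 in naive livers, and fell by 1.07 (adjusted p = 0.0343). In HAES livers it had 323, 264 and 625, against 178, 148 and 175 in PHx livers, and was higher by 1.11 (adjusted p = 0.0352). Without HAES replicate 3, the highest of these, the difference was 0.75 (adjusted p = 0.138). The difference from naive livers was 0.27 in HAES livers (adjusted p = 0.699) and −0.84 in PHx livers (adjusted p = 0.210). Igfbp3, the binding partner of Igfals, fell by 1.16 in the bleeding group against naive livers (adjusted p = 0.0346). Junb, Inhba and Igfals, of the 107 list genes, also passed the F test over the 6 groups, as did 6.59% of all probe sets. The other genes of these lists are named because they passed in a pair. Each of these 14 calls kept its direction under both scalings and with each array left out, and was past the threshold in 4 to 15 of the 18 fits with 1 array left out.

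The genes whose levels most resembled Hgf were sought among 11519 genes by Pearson correlation over the 18 arrays, as a description. They were Ubxn2a (r = 0.91), Ddx3x (r = 0.91), Hook1 (r = 0.90), Sclt1 (r = 0.89) and Cdkn2aip (r = 0.88). Without S-RBC replicate 1 the 5 values lay between 0.87 and 0.90. Ddx3x, an RNA helicase, ranged from 655 to 894 in S-RBC livers and from 481 to 615 in F-RBC livers. For Tgfa the closest was Dtl, a subunit of a ubiquitin ligase active in DNA replication (r = 0.92), followed by Tmem140 (r = 0.85). For Plau they were Ckap4 (r = 0.90) and Abcb1b (r = 0.89). The points of each correlation share their arrays and thereby their differences in brightness. After centring each array on its median r was 0.92 for Ubxn2a with Hgf, 0.90 for Dtl with Tgfa and 0.89 for Ckap4 with Plau.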

How the data were processed

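The authors deposited 1 linear intensity per probe set and array. The submitters' notes list Affymetrix Power Tools with PLIER, while in the methods both RMA and PLIER occur, and no version or build is given in the sources used here. Values lay between 1e-05 and 8721, and the array medians differed, so the deposited values did not share a common distribution. For dim genes log2(intensity + 16) understates a change. The number of arrays, 3 per group, limits the precision. The deposited table held 0 other columns of sample values.

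Of 36685 probe sets, 18511 had 1 gene symbol in the platform annotation, 575 several and 17599 none. A gene was represented by its brightest probe set with 1 symbol. Group means were fitted to all 18 arrays with limma 3.58.1 in R 4.3.3 (variance trend, 12 residual degrees of freedom), without further normalization. Python 3.11.15 with pandas 2.3.3 and matplotlib 3.10.9 made tables and figures. The pipeline was tested on simulated data. The members, the pathway lists and the marker lists were chosen with earlier results of these data known. The naming rule took all members and, from each pathway list, up to 3 genes past the threshold with the smallest p of the F test; list genes that passed only in a pair were named after their values were seen. Marker lists of neutrophils, platelets, cholangiocytes and erythroid cells were also written, and 0 of their genes passed in limma in S-RBC against F-RBC livers or against the bleeding group, with between 0 and 2 genes of each list at an unadjusted p under 0.05 and 0 called by the methods' t-test. The promoters of all 10 members, matched in the RefSeq table, were searched on both strands for C/EBP, STAT, NF-kB, AP-1, GC box, forkhead, insulin response (CAAAACA), nuclear receptor half-site (AGGTCA) and TATA motifs. Shared replicate numbers did not pair the rats.

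Alternatives tried were median centring, quantile normalization, 1 or 64 as the offset, the brighter probe sets only, array weights, a replicate block, only the groups compared, the 12 arrays of 4 groups alone, the methods' t-test (one-way ANOVA for the 6 groups) and each array left out in turn.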

Additional observations from a re-analysis of the deposited data

How the results depend on the processing

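The direction of each difference of Hgf in S-RBC livers against F-RBC livers and against the bleeding group was kept under all alternatives, with log2 differences of 1.07 to 1.45 and 0.71 to 1.05. The number of members past the threshold moved as follows. Over the 6 groups it was 1, and 2 with quantile normalization (Hgf and Hgfac), 2 with the brighter probe sets only and 2 with array weights (Hgf and Tgfa in both), 0 with the one-way ANOVA, and 0 to 2 with 1 array left out (0 without F-RBC replicate 1 or 2 or S-RBC replicate 1 or 3, 2 without PHx replicate 2). In S-RBC against F-RBC livers it was 1, and 0 with the methods' t-test, 0 with only the groups compared, 0 with the 12 arrays alone, and 0 to 1 with 1 array left out (0 without F-RBC replicate 1 or 2 or S-RBC replicate 1). Against the bleeding group it was 1, and 0 with quantile normalization, 0 with the replicate block (adjusted p of Hgf 0.0629), 0 with the methods' t-test, 0 with only the groups compared, and 0 to 1 with 1 array left out (0 without any 1 of the bleeding rats, naive replicate 2 or 3, PHx replicate 3, or S-RBC replicate 1 or 3). The cause was not tested. In pairs with a count of 0, array weights gave 2 in F-RBC against naive livers (Plau and Tgfa), 1 in F-RBC against PHx livers (Tgfa) and 2 in F-RBC livers against the bleeding group (Hgfac and Tgfa). In the last pair quantile normalization gave 1 (Hgfac) and the brighter probe sets 1 (Tgfa). The brighter probe sets gave 1 in S-RBC against naive livers (Hgf), and median centring 1 in HAES against PHx livers (Plau). With 1 array left out the count ranged from 0 to 1 in PHx against naive (Plau), F-RBC against naive (Tgfa), S-RBC against naive and against PHx (Hgf), HAES against PHx (Plau) and F-RBC against the bleeding group (Tgfa). In F-RBC livers against the bleeding group 501 of all probe sets passed with quantile normalization, against 443 without scaling. In HAES against PHx livers 1214 passed with median centring, against 836 without scaling. For the alternatives other than these scalings, the calls among all probe sets are not given. Whether the member calls added there exceed that background is therefore not known. Samples with the same replicate number did not deviate together (4 of 45 such pairs had r above 0.1, median −0.04), and the replicate block changed no other count of members. Other probe sets of a member could not be tried, since each had 1.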
